A study of Rattus norvegicus with 2 samples.

Results

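Genes that mark the myelin, the Schwann cells and the axons of peripheral nerve were followed in small mesenteric arteries of portal hypertensive rats and of sham-operated rats. The set holds 8 genes (Mbp, Pmp22, Mag, Cnp, S100b, Gap43, Nefl and Ngfr), chosen by name as a measure of nerve bundles kept with the dissected arteries. How far the transcripts of these or of the other axon and transmitter genes follow the amount of nerve fibre in the arteries was not tested. All 14 probe sets that the platform annotation assigns to a single one of these symbols were taken, out of 8740 probe sets without controls and 4736 named genes on the array. The tissue was first and second order branches of the mesenteric artery, and the portal hypertensive group had prehepatic portal hypertension from partial ligation of the portal vein. Each group was 1 pool of total RNA from 20 rats, read on 1 Affymetrix RG_U34A array, so no difference could be tested, and the precision is limited by having only 2 arrays. The labels used here give no strain, sex, age or time after ligation.

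Small arteries of the gut carry a plexus of fine nerve fibres at the outer edge of their muscle coat, and larger nerve bundles run beside them in the mesentery. Schwann cells wrap these fibres. Around thick axons they lay down compact myelin, which needs structural proteins such as those encoded by Mbp and Pmp22, while thin autonomic fibres lie in unmyelinated Schwann cells that keep the neurotrophin receptor encoded by Ngfr. Axons are filled with neurofilaments, one subunit of which is encoded by Nefl, and their growing tips hold the protein encoded by Gap43. Several of these genes are also active outside nerve, for example S100b in fat cells and Pmp22 in fibroblasts.

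The nerve genes as a set gave no settled difference between the pools. Of the 8 genes, 6 had a value, meaning at least 1 probe set above the floor of 330.9 intensity units in at least 1 pool. That floor, set at the 40th percentile over both arrays together, stands in for detection calls. Among these 6 genes, 4 had a log2 ratio of portal hypertension over sham above 0 and 2 below 0, whereas 46.8% of the 3351 genes with a value were above 0 and 53.2% below. Of the 14 probe sets, 9 lay above the floor in both pools (measured) and 5 in neither. The median over the 6 genes was 0.06, against -0.02 over all genes with a value. Its sign was not settled: it turned to -0.15 with the floor at the 20th percentile or with no floor, where Nefl gained a value and was at least 1.5-fold lower, to -0.03 without probe sets of shared probes and to -0.05 without 1 Ngfr probe set. At a threshold of 1.5-fold 0 of the 6 were higher and 0 were lower, where 3.13% of all genes with a value were higher and 5.04% lower. With 6 genes, counts of 0 are near these shares and say little about the set. Ngfr enters these counts as the midpoint of 2 opposite probe sets. Among the 9 measured probe sets of these genes, 0 passed 1.5-fold, against 3.1% higher and 5.38% lower among all 4960 measured probe sets, and 5 were above 0 and 4 below, against 46.9% and 53.1%. 

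**Figure D1:**
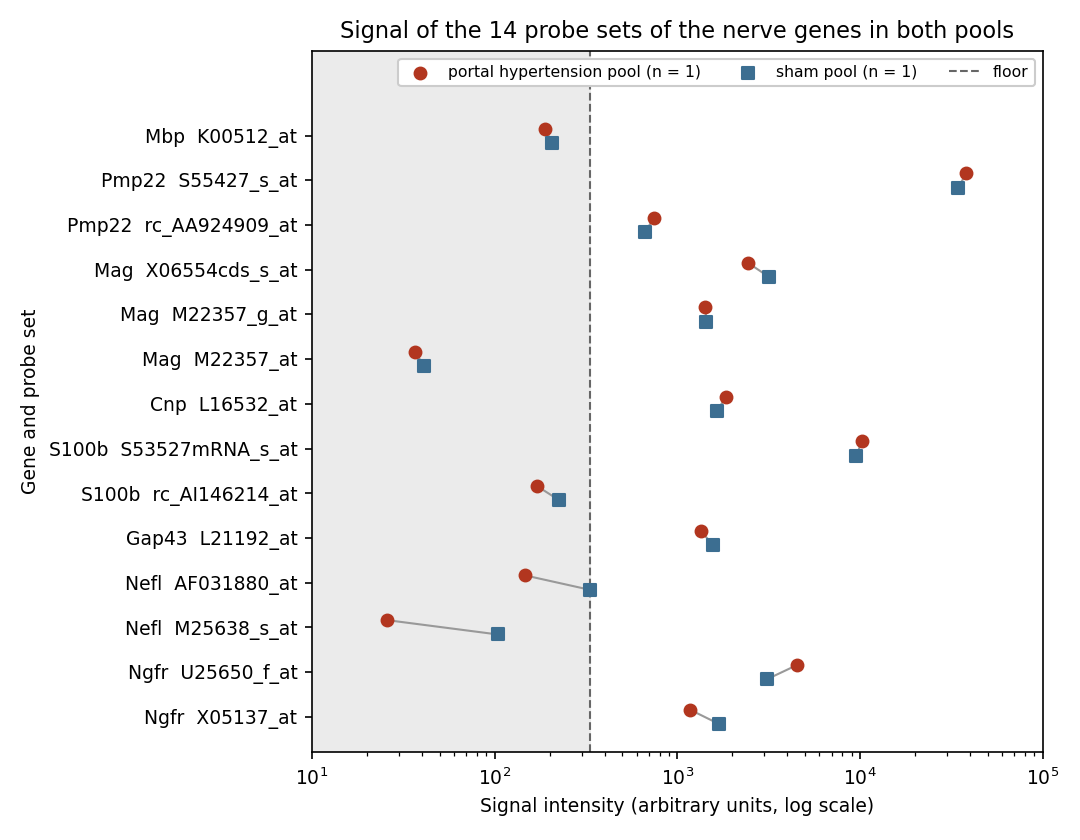
Signal intensity on a log axis of the 14 probe sets of the 8 nerve genes, with circles for the portal hypertension pool and squares for the sham pool (1 array each). The shaded area lies below the floor of 330.9, and it holds both pools of the Mbp probe set, of both Nefl probe sets and of 1 probe set each of Mag and S100b, with the sham value of Nefl probe set AF031880_at on the line.

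With 1 array per group, the error was gauged mainly from how far probe sets of the same gene disagree. Over 789 genes with several measured probe sets (1801 probe sets), log2 ratios scattered around their gene's mean with an SD of 0.30. The SD was 0.36 for probe sets below the median level of 1627 units and 0.24 for those above it. Differences between rats are not part of this spread, nor is a shift between arrays. The 9 spike-in probe sets above the floor, of transcripts added to the samples, had a mean log2 ratio of 0.28 (SD 0.28), with 8 above 0. Of the 9 measured probe sets of the nerve genes, 6 had log2 ratios smaller than 0.30 and 3 were larger, 1 of Mag and 2 of Ngfr. Of all measured probe sets, 68.3% lay within 0.30.

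Among the genes of the myelin sheath, Mbp encodes myelin basic protein, which holds the inner faces of the myelin membrane together. Its single probe set (K00512_at) gave 187.5 units in the portal hypertension pool and 206.9 units in the sham pool. Both values are below the floor, so no ratio is given for Mbp.

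Pmp22 encodes a membrane protein of compact myelin whose gene dosage underlies common inherited neuropathies in humans. The probe set S55427_s_at had 38290 units in the portal hypertension pool and 34475 units in the sham pool. The probe set rc_AA924909_at had 744.5 units in the portal hypertension pool and 665.6 units in the sham pool. These are log2 ratios of 0.15 and 0.16, so that both probe sets put Pmp22 about 1.11-fold higher in the portal hypertension pool, within the spread between probe sets. Their gap of 0.01 was far under the median gap of 0.22 over the 613 genes with 2 measured probe sets.

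Mag encodes myelin-associated glycoprotein, an adhesion molecule of the myelin layer next to the axon. The probe set X06554cds_s_at had 2428 units in the portal hypertension pool and 3172 units in the sham pool, a log2 ratio of -0.39. The probe set M22357_g_at had 1423 units in the portal hypertension pool and 1444 units in the sham pool, a log2 ratio of -0.02. The first was lower in the portal hypertension pool by more than the SD of 0.30, at -0.30 to -0.36 under other scalings, whereas the pools were nearly level on the second, which turned to values from 0.01 to 0.06 under them. The gene value, the median over the measured probe sets, was -0.20.

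The third Mag probe set, M22357_at, is named for the same sequence record as M22357_g_at and yet gave 36.7 units in the portal hypertension pool and 41.1 units in the sham pool, below the floor. Such a mismatch was seen in 139 of 906 pairs of probe sets named in this way (15.3%), and the opposite mismatch in 78 pairs. The presence of Mag transcript in these arteries is therefore not settled by its probe sets.

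Cnp encodes an enzyme of the cytoplasmic channels of myelin, made by myelinating glia and at lower levels elsewhere. Its single probe set (L16532_at) had 1847 units in the portal hypertension pool and 1651 units in the sham pool. The log2 ratio was 0.16, within the spread between probe sets.

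Of the 2 genes known from Schwann cells whether or not they form myelin, S100b encodes a calcium-binding protein of glia and fat cells. The probe set S53527mRNA_s_at had 10270 units in the portal hypertension pool and 9535 units in the sham pool, a log2 ratio of 0.11. The other probe set, rc_AI146214_at, gave 170.5 units in the portal hypertension pool and 226.1 units in the sham pool and was below the floor in both. The value of S100b thus rests on 1 probe set, and with a floor low enough to admit the other it turned to -0.15.

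Ngfr encodes the p75 neurotrophin receptor, which binds the neurotrophins. The probe set U25650_f_at had 4548 units in the portal hypertension pool and 3104 units in the sham pool, a log2 ratio of 0.55. The probe set X05137_at had 1168 units in the portal hypertension pool and 1685 units in the sham pool, a log2 ratio of -0.53. These probe sets had the highest and the lowest ratio of all 9 measured probe sets of the nerve genes, and they belong to the same gene.

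The Ngfr median of 0.01 is the midpoint of opposite values and describes neither probe set. The gap between them was 1.08 on the log2 scale. Over the 613 genes with 2 measured probe sets, 14 had a gap at least as wide, Ngfr included, which is 2.28% of them, while opposite signs as such were common, in 218 genes (35.6%). The suffix _f_at is the one that Affymetrix gave to probe sets whose probes may also match related sequences, and 196 probe sets on the array carry it. With that probe set left out, a choice made after the values were seen, Ngfr had -0.53. The direction of Ngfr was not settled by these arrays.

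**Figure D2:**
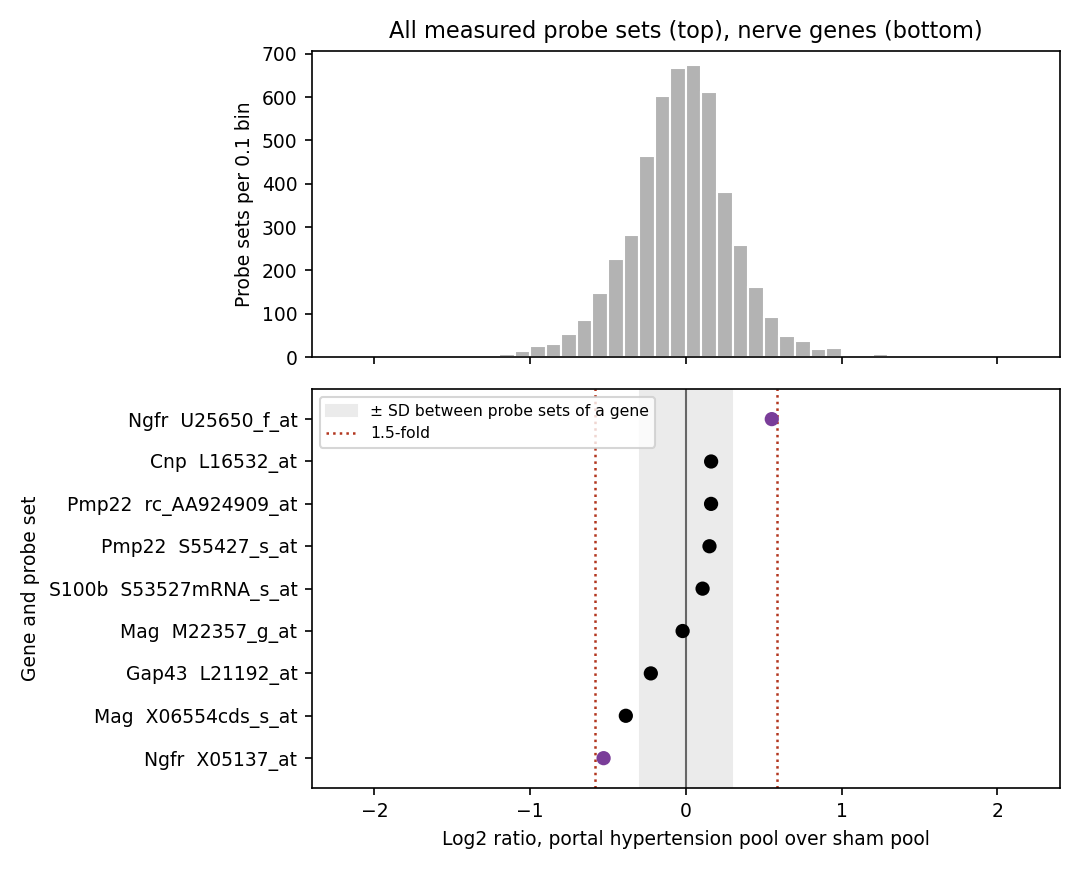
Upper panel, number of probe sets per bin of log2 ratio (portal hypertension pool over sham pool) for the 4960 probe sets measured on both arrays; lower panel, the 9 measured probe sets of the nerve genes, with the shaded band for the spread within genes (SD 0.30) and dotted lines at 1.5-fold. The Ngfr probe sets, in purple, lie at 0.55 and -0.53, on either side of all the others.

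**Figure D3:**
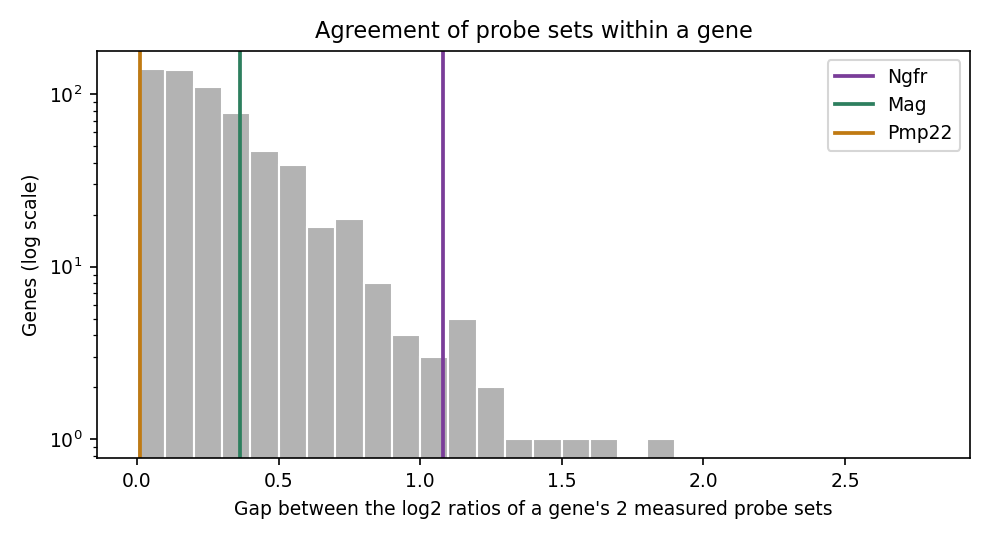
Number of genes (log axis) by the gap between the log2 ratios of their 2 measured probe sets, over 613 genes, with lines for Pmp22 (0.01), Mag (0.36) and Ngfr (1.08). Pmp22 lies at the low end, and 14 genes, Ngfr included, lie at or beyond the Ngfr line.

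On the axon side, Gap43 encodes a growth cone protein that is also found in Schwann cells without myelin. Its single probe set (L21192_at) had 1342 units in the portal hypertension pool and 1569 units in the sham pool. The log2 ratio was -0.23, the lowest gene value of the set and still within the spread between probe sets.

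Nefl encodes the light subunit of neurofilaments. The probe set AF031880_at gave 147.1 units in the portal hypertension pool and 330.9 units in the sham pool. The probe set M25638_s_at gave 25.8 units in the portal hypertension pool and 103.7 units in the sham pool. Both probe sets had the lower value in the portal hypertension pool, but 3 of these values lie below the floor and the fourth is equal to it, so no ratio is given. With the floor at the 20th percentile Nefl had a log2 ratio of -1.17.

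Other genes of Schwann cells and myelin were read for the same pools. Of 30 listed genes 19 had a named probe set, and 13 of these had a value. Among the 13, 7 had a ratio above 0 and 6 below it, with a median of 0.02, against 46.8% and 53.2% of all genes with a value. Past 1.5-fold there were 2 higher and 0 lower, against 3.13% and 5.04% of all genes with a value. A floor at the 20th percentile turned this median to -0.01. With only probe sets measured in both pools, 12 genes remained, 6 above 0 and 6 below, with 1 higher and 0 lower past 1.5-fold. Genes of Schwann cells and their myelin were among those below the floor. Sox10, the transcription factor of the neural crest glial lineage, gave 40.2 units in the portal hypertension pool and 36.1 units in the sham pool. Egr2, which switches on the myelin genes, gave 171.6 units in the portal hypertension pool and 170.9 units in the sham pool. Prx, which encodes a scaffold protein of peripheral myelin, gave 112.8 units in the portal hypertension pool and 259 units in the sham pool. Other genes known from Schwann cells and myelin were above the floor in both pools. Mal, which encodes a myelin lipid raft protein, had 1625 units in the portal hypertension pool and 1590 units in the sham pool. Gjb1, the connexin gene of myelin and liver, had 1090 units in the portal hypertension pool and 1101 units in the sham pool. Erbb3, the neuregulin receptor gene of Schwann cells, had 443.8 units in the portal hypertension pool and 436.7 units in the sham pool on 1 of its 2 probe sets. These 3 genes were chosen after their values were seen, and their log2 ratios lay between -0.01 and 0.03. Pou3f1, Ncam1 and Fabp7 of this list were below the floor too, as was Mbp of the nerve genes. Because Mal, Gjb1 and Erbb3 were picked with their values known, no conclusion is drawn from their lying above it. The signals of Pmp22, S100b, Cnp and Ngfr are given here as levels of these genes and are not assigned to a cell type.

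Scn7a, an atypical sodium channel gene known from Schwann cells, was the lowest of this list. Its probe set rc_AA925248_at had 8005 units in the portal hypertension pool and 12029 units in the sham pool, and S75991_at had 2546 units in the portal hypertension pool and 3710 units in the sham pool. Both probe sets of Scn7a were lower in the portal hypertension pool, with log2 ratios of -0.59 and -0.54, beyond the spread between probe sets, and lay between -0.46 and -0.59 under every scaling tried. Nrg1, which encodes the axonal growth factor that sets myelin thickness, had -0.52 on its measured probe set with 345.1 units in the portal hypertension pool and 493.4 units in the sham pool, while 6 further probe sets of Nrg1 did not reach the floor. Cntf, a Schwann cell cytokine that keeps motor neurons alive, had 0.65, with 540.9 units in the portal hypertension pool and 344.9 units in the sham pool. Apod, which encodes a lipid carrier made by Schwann cells and fibroblasts, had 0.34. Itgb4, an integrin subunit gene, completed the genes past 1.5-fold and was at least 1.52-fold higher, above the floor in the portal hypertension pool only; it was named after its value was seen. For the oligodendrocyte, the myelin cell of the brain, Mog and Mobp had 6 probe sets, all below the floor in both pools.

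Among other genes of axons and neurons, 13 of the 23 with a named probe set had a value. Of these, 6 were above 0 and 7 below, against 46.8% and 53.2% of all genes with a value, and the median was -0.05. Past 1.5-fold 1 was higher and 2 were lower, against 3.13% and 5.04% of all genes with a value. With only probe sets measured in both pools, 11 genes remained, 4 above 0 and 7 below, with 0 higher and 2 lower past 1.5-fold. The direction of this list was not settled: its median turned to 0.02 with each array divided by its own median, to 0.20 with the floor at the 20th percentile (13 of 19 genes above 0, 5 higher and 2 lower past 1.5-fold) and to 0.23 with no floor (17 of 23 above 0, 7 higher and 2 lower). Nefm, the medium neurofilament subunit, had 596 units in the portal hypertension pool and 519.7 units in the sham pool, a log2 ratio of 0.20. Nefh, the heavy subunit, was below the floor on both probe sets. Prph encodes peripherin, the intermediate filament of small peripheral neurons, and was at least 1.79-fold higher, with 592.4 units in the portal hypertension pool and 255.5 units, below the floor, in the sham pool. Of the filament genes with a value, Nefm was measured in both pools. Prph passed the floor through the portal hypertension pool only, so its ratio is a bound that could only lie above 0. Without the floor its signal was also higher in the portal hypertension pool. Nefl, which has no value, had the lower signals in the portal hypertension pool. These genes thus give no shared direction, and all had signals near or below the floor. Stx1a, a component of the machinery of transmitter release, had -0.93 on 1 of its 2 probe sets, Basp1, a growth cone protein gene, had -0.63, Syp, which encodes a synaptic vesicle protein, 0.25, and Mapt, which encodes tau, had -0.50 and 0.06 on its 2 measured probe sets, so its direction was not settled.

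For the transmitter genes of perivascular nerves, 7 of 13 had a value, 3 above 0 and 4 below, with a median of -0.14. Over all genes with a value 46.8% were above 0 and 53.2% below. Past 1.5-fold 1 transmitter gene was higher and 1 lower, against 3.13% and 5.04% of all genes with a value. Of the 7, 3 were above the floor in 1 pool only. With only probe sets measured in both pools, 4 genes remained, 1 above 0 and 3 below. With no floor the direction turned, with 8 of 13 above 0, a median of 0.32, and 4 higher and 1 lower past 1.5-fold. Over all 4736 genes 455 were then higher and 487 lower. Npy, the gene of the sympathetic cotransmitter neuropeptide Y, had 16002 units in the portal hypertension pool and 20118 units in the sham pool, a log2 ratio of -0.33. Th, the enzyme gene at the start of noradrenaline synthesis, had 840.4 units in the portal hypertension pool and 926.9 units in the sham pool, a log2 ratio of -0.14. The noradrenaline transporter gene Slc6a2 also had -0.14, on 1 of its 2 probe sets, the other being below the floor in both pools. Pnmt, the gene of the enzyme that makes adrenaline, was the only one at least 1.5-fold higher, with 0.76 on its single probe set, one of shared probes. Without probe sets of shared probes 2 transmitter genes had a value, both below 0. Tac1, the substance P precursor gene, was the only one of the 7 at least 1.5-fold lower and was above the floor in the sham pool only, at least 1.57-fold. It was named after its value was seen.

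The neurotrophin family, whose members the p75 receptor binds, was read together with related factors and receptors. Of the 12 genes with a named probe set, 8 had a value, 2 above 0 and 6 below, against 46.8% and 53.2% of all genes with a value. Past 1.5-fold 0 were higher and 2 lower, against 3.13% and 5.04% of all genes with a value. The median was -0.17. Bdnf, a neurotrophin gene, was one of these 2, with -0.65 on its measured probe set, which had 1173 units in the portal hypertension pool and 1844 units in the sham pool. On another Bdnf probe set the portal hypertension pool was below the floor at 110.7 units, against 534.6 units in the sham pool, and the other 5 were below the floor in both pools. The other was Ntrk3, the receptor gene for neurotrophin 3, which was above the floor in the sham pool only and at least 1.88-fold lower, and it was named after its value was seen. With only probe sets measured in both pools, 6 genes of this list remained, 1 above 0 and 5 below, with 0 higher and 1 lower past 1.5-fold. Cntfr, the receptor gene for Cntf, had -0.23, Gfra2, a receptor gene for neurturin, -0.18, and Ret, the signalling partner of such receptors, 0.17.

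**Figure D4:**
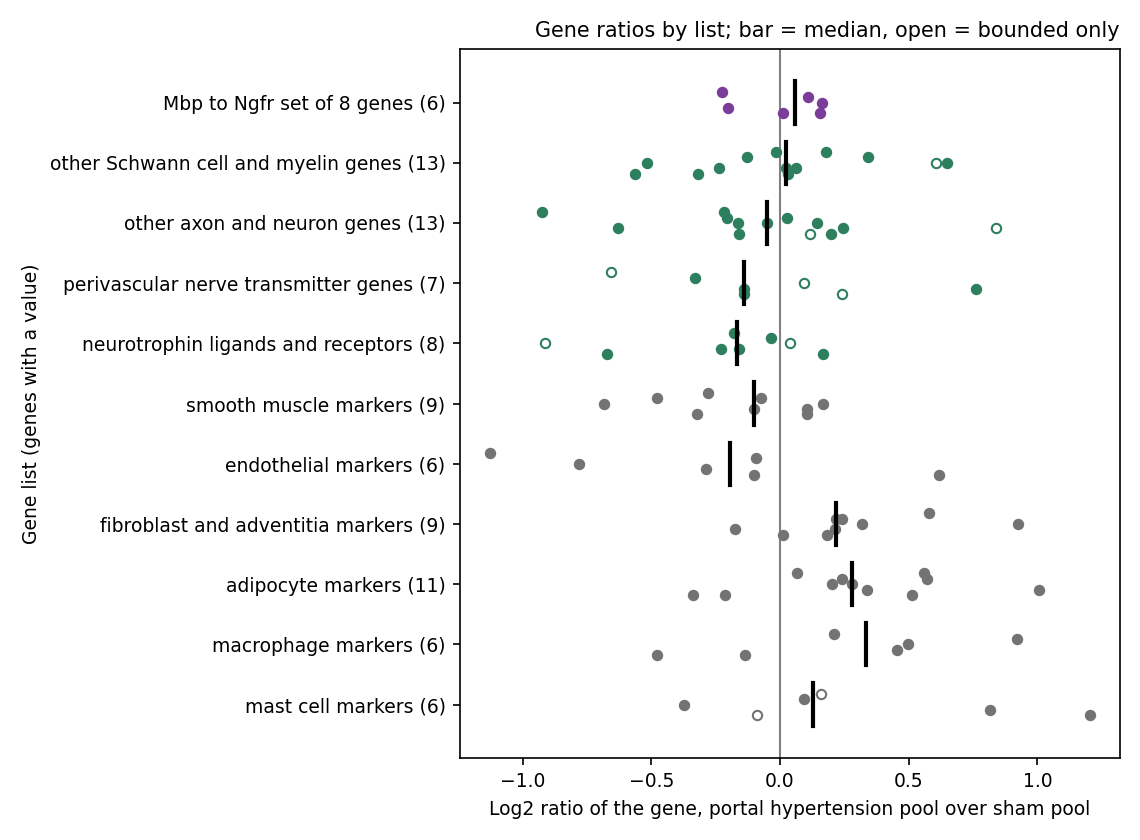
Log2 ratio of each gene with a value (portal hypertension pool over sham pool), by gene list, with a bar at the median of the list, filled points for genes with a probe set measured on both arrays and open points for genes above the floor in 1 pool only. The 6 nerve genes have a median of 0.06 and lie between -0.23 and 0.16, with Ngfr drawn at the midpoint of 2 opposite probe sets. The lists of fibroblast, adipocyte and macrophage markers have medians of 0.22, 0.28 and 0.33. The list of endothelial markers has a median of -0.19.

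Other cells of the vessel and its surroundings express some of the nerve genes, and the medians of their marker lists differed. Of all genes with a value, 46.8% were above 0 and 53.2% below. Adipocyte markers, the cells outside nerve best known for S100b, had 9 of 11 genes with a value above 0, and their median was 0.28. The summed signal of the 17 measured probe sets of these markers was 155281 units in the portal hypertension pool and 114693 units in the sham pool. Of these sums, 1 Scd probe set gave 29482 units in the portal hypertension pool and 11225 units in the sham pool. The 2 adipocyte markers below 0 were Lep and Adrb3, and Plin1 and Ucp1 were below the floor. Fibroblast and adventitia markers, of cells known for Pmp22, had 8 of 9 genes above 0 with a median of 0.22. After quantile normalization 7 of the 9 were above 0, with a median of 0.13. With the trend of ratio on level removed the median was 0.14, and with each array divided by its median 0.30. Their summed signal was 718494 units in the portal hypertension pool and 647850 units in the sham pool over 17 probe sets. Smooth muscle markers, which define the artery itself, were all above the floor where a probe set was named (9 genes), with 3 above 0 (0 after quantile normalization and 4 with each array divided by its median), a median of -0.10 (-0.09 and -0.02 under those scalings) and a summed signal over 16 probe sets of 723571 units in the portal hypertension pool and 737872 units in the sham pool. Endothelial markers had 5 of 6 genes with a value below 0, with a median of -0.19. Past 1.5-fold 2 were lower and 1, Edn1, was higher, against 5.04% and 3.13% of all genes with a value. Of the 2 lower, Nos3 had measured probe sets at -0.78, -1.20 and 0.25. The other, Icam2, had -1.13 on 1 probe set, with 364.7 units, near the floor, in the portal hypertension pool and 796.1 units in the sham pool. With the floor at the 20th percentile or with no floor, 5 of 9 endothelial genes were below 0 and 4 above, with a median of -0.09. With no floor 2 were higher and 1 lower past 1.5-fold. The summed signal of the endothelial markers over 9 probe sets was 10258 units in the portal hypertension pool and 11704 units in the sham pool. Macrophage markers had 4 of 6 above 0, with a summed signal over 10 probe sets of 58780 units in the portal hypertension pool and 48251 units in the sham pool. Mast cell markers had 4 of 6 above 0, with a median of 0.13 and a summed signal over 4 probe sets of 17482 units in the portal hypertension pool and 10372 units in the sham pool. Most of these sums came from Cma1, with 8609 units in the portal hypertension pool and 3738 in the sham pool, and Cpa3, with 6469 and 3673. Both were past 1.5-fold higher, whereas Tpsb2 had 1972 units in the portal hypertension pool and 2557 in the sham pool. With only probe sets measured in both pools, 4 mast cell markers remained, 3 above 0 and 1 below, with a median of 0.46. The part of these cells in the values of Pmp22, S100b and Ngfr was not tested. In RNA from whole tissue, fewer cells of a type and less RNA per cell cannot be told apart.

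The file headers note 12.5 µg of labelled RNA for the portal hypertension array and 17 µg for the sham array, each followed by a question mark. Each amount belongs to 1 array, so amount and operation cannot be told apart.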

How the data were processed

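The deposited table gives each probe set 1 intensity per array on a linear scale; how the authors computed, scaled and background-corrected it is not given in the sources used here. Per the labels, total RNA came from TRIzol extraction followed by an RNeasy cleanup. Means without the lowest and highest 2% of values were 2504.38 for the portal hypertension array and 2504.33 for the sham array, so the values were used as scaled. After 59 control probe sets were set apart, values under 330.9 (the 40th percentile) were raised to it, and log2 was taken. Probe sets above it were measured in both pools (4960), in 1 pool (567, bounds only) or in neither (3213). The gene value is the median log2 ratio over probe sets above the floor in at least 1 pool. Names come from the platform annotation (7018 with 1 symbol, 308 with several, 1473 with none), and 0 symbols changed on lookup in RefSeq (GRCr8).

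The members and lists were chosen with earlier results of these data known. All members are described, and of each nerve list the up to 4 measured genes with the largest ratio and a fixed few, some of which are not reported here. No likeness of patterns was ranked, since over 2 pools any pair of genes correlates at 1 or -1. With 1 array per group no test was made, and ratio steps were tested on simulated data. Alternatives changed scaling, floor, probe sets and summary. Python 3.11.15, pandas 2.3.3, statsmodels 0.14.6.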

Additional observations from a re-analysis of the deposited data

How the results depend on the processing

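With a lower floor (20th percentile) or none, Mbp and Nefl gained values, 5 of 8 nerve genes instead of 2 of 6 had a ratio below 0, and 1, Nefl, was at least 1.5-fold lower instead of 0; the lower floor itself admits these genes. The median over the nerve genes was then -0.15 in both cases, and it was -0.03 with probe sets of shared probes left out and -0.05 without the Ngfr probe set U25650_f_at (added after the data were seen); under the other 6 alternatives it lay between 0.06 and 0.14. Ngfr turned to -0.53 when either of those choices removed U25650_f_at and was 0.55 on the probe set of highest level. S100b turned to -0.15 under the lower floor and under none, which admit its dimmer probe set. Leaving out probe sets of shared probes left 4 nerve genes with a value, without Mag and S100b. Of 58 gene values recomputed under 10 alternatives, 55 moved by less than 0.30. Many of them could not move, because the alternative left the probe sets of the gene and their values unchanged. The count is therefore no measure of how firm the values are. It also leaves out the values that Mbp and Nefl gained, for Nefl -1.17 with the 20th percentile floor and -1.59 with no floor. Dividing each array by its median moved the median of all genes to 0.06 and the share of all genes below 0 to 42.0%, with 2 nerve genes below 0. No paired analysis was possible because each group has 1 array. With 1 array each, no replicate could be left out.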
